A study of Mus musculus with 19 samples.

Results

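Neural-type genes of hepatic stellate cells (HSCs) were followed while the cells passed from the liver into culture: Ngfr, Ntm, Mapt, Ncam1 and Reln. They were picked by name and matched to the Ensembl identifiers of the count table, which gave 5 of the 55487 genes listed, all 5 among the 15138 genes with enough counts to be tested. The study sorted HSCs from the livers of healthy, untreated male Balb/c mice aged 23 to 24 weeks by the ultraviolet fluorescence of their vitamin A stores and grew them on collagen-coated plastic in medium with 10% fetal bovine serum. Gene activity was measured by RNASeq of 3' mRNA ends in 19 libraries. Uncultured cells (0 h) and cells after 24 h gave 2 libraries each, while cells after 3, 6, 12, 18 and 96 h gave 3 each. No group carried a transgene or an injury, the groups are set by time on plastic, and medium was renewed after 3 h and after 24 h. The study states 3 independent repeats for every time, each made of 2 technical repeats, while 0 h and 24 h have only 2 libraries here. The labels carry an isolation date and, after the letter M, a number from 1 to 3 that they do not explain. This number is read here as that of a cell isolation. By this reading isolations 1 and 3 shared one date and isolation 2 had another. Isolation 1 has no library at 0 h and isolation 3 none at 24 h. How many mice entered an isolation is not given in the sources used here.

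Quiescent HSCs store vitamin A in lipid droplets, lie close to nerve endings in the liver and share several transcripts with neurons and glia, although they are mesenchymal cells. Ngfr encodes the p75 neurotrophin receptor, a receptor of the TNF receptor family that binds neurotrophins. Ntm (neurotrimin) is a cell adhesion protein of the IgLON family held to the membrane by a lipid anchor, Ncam1 is the neural cell adhesion molecule, Mapt is the microtubule-binding protein tau, and Reln is the secreted glycoprotein reelin, which guides migrating neurons and is used as a marker of HSCs in the liver.

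In the GENCODE M21 annotation of GRCm38 all 5 genes are protein-coding. Ngfr (ENSMUSG00000000120) lies on chromosome 11 from 95568818 to 95587735, minus strand, and Mapt (ENSMUSG00000018411) on the plus strand of the same chromosome, from 104231390 to 104332090. Ntm (ENSMUSG00000059974) and Ncam1 (ENSMUSG00000039542) lie on the minus strand of chromosome 9, from 28994750 to 29963141 and from 49502136 to 49798925. Reln (ENSMUSG00000042453) occupies 21884454 to 22344702 on the minus strand of chromosome 5. Exons of 2 of the 5 genes overlap an antisense gene: Gm10475 at Reln held 121 counts over all libraries against 77878 for Reln, and Gm11149 at Ncam1 held 0. Whether counting used the strand is not given in the sources used here. The other 3 genes share no exon bases with another gene.

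The sequence before the start of Ngfr and of Reln is shown because the levels of these genes went most closely together of any pair of the 5, as given further on. Both were copied from the RefSeq promoter table of GRCm38.p6, 5' to 3' on the strand of the gene, in lower case with GGGCGG (a GC box, searched on both strands) in capitals. Mapt and Ncam1 have no entry in that table. The stretch for Ngfr, chr11:95587736-95587948 (minus strand), ends at the start annotated by GENCODE, 37 bases before the RefSeq start, and that for Reln, chr5:22344706-22344955 (minus strand), ends at the RefSeq start.
Ngfr: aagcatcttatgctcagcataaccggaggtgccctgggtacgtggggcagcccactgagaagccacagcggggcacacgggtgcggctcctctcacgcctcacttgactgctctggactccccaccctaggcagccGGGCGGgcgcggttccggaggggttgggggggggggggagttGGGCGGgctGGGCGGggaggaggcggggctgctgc
Reln: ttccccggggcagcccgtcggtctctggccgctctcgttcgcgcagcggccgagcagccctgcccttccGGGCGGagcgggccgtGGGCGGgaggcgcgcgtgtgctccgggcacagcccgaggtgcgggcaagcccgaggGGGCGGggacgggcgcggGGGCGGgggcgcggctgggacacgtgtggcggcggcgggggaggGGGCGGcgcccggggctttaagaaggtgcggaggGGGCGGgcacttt
GGGCGG occurred 6 times in the 250 bases before Reln and 4 times in the 250 bases before the RefSeq start of Ngfr, 3 of them in the stretch printed. The windows before the 2 RefSeq starts of Ntm held 1 match and 0 matches. Of all 32851 windows of this length in the table, 32.7% held GGGCGG, so that its presence does not set these genes apart. The activator protein 1 motif TGANTCA (6.75% of windows) and TATAAA (12.4%) were found in none of the 4 windows, and CACGTG (6.02%) was found once, before Reln. A match is a match of letters only.

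Libraries held between 2073171 and 7690892 counts, and the smallest was isolation 3 at 0 h. Values are CPM, the usual share of a library's counts after TMM scaling of its total, and are meant to compare a gene with itself only. As the detection limit of a library 3 counts were used, which lay between 0.386 and 1.51 CPM; such limits cover counting error only. As the libraries are bulk RNA, fewer cells of a type and less RNA per cell cannot be told apart. Replicates of one time differed beyond counting noise in all pairs, so none was taken for a library deposited more than once. At 0 h all 12 stellate cell markers were detected in both libraries, with a summed level of 30576 CPM in isolation 3 and 35687 CPM in isolation 2. All 8 hepatocyte markers were detected there too, with sums of 6978 and 3152 CPM. Markers of other liver cells are given further on. Of 13 neuron markers 9 had 0 counts in all 19 libraries, and of 10 Schwann cell markers 6 did, with Sox10 and S100b among the latter. The neuron list summed to 30.1 and 47.1 CPM at 0 h, carried by Rbfox3 alone, and the Schwann list to 0 and 11.5 CPM.

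Ngfr, the receptor gene, went to 0 counts. In uncultured cells its level was 259 CPM in isolation 3 and 428 CPM in isolation 2. After 3 h it was 373, 593 and 379.8 CPM in isolations 1, 2 and 3, and after 6 h 131, 267 and 82.6 CPM. The libraries of 3 h and 6 h overlapped those of 0 h. After 12 h the libraries held 17.4, 16.5 and 8.14 CPM, below every earlier library. From 18 h on all 8 libraries, those of 96 h included, held 0 counts of Ngfr, against 516 and 1708 counts at 0 h. A count of 0 allowed up to 0.731 CPM at 18 h, 0.644 CPM at 24 h and 0.86 CPM at 96 h in the shallowest library of each time, taken as 3 counts per library. Ngfr was thus at least 470.1-fold lower than at 0 h after 18 h, at least 534-fold lower after 24 h and at least 399-fold lower after 96 h.

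Ntm, the IgLON adhesion protein, declined in steps and was still detected at the end. It stood at 1024 and 1679 CPM at 0 h in isolations 3 and 2, and at 725, 1286 and 743 CPM after 3 h in isolations 1, 2 and 3. After 6 h the libraries lay close together at 468, 458 and 513 CPM, all below both 0 h libraries. The level reached 121, 128 and 97.8 CPM after 12 h and 51.2, 85.6 and 68 CPM after 18 h. It was 51.5 and 62.1 CPM after 24 h, within the range of 18 h. The 3 libraries of 96 h were the lowest of all, with 11.5, 20.6 and 17.2 CPM, so that the mean was 1.21% of that at 0 h.

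Mapt, which codes for tau, had the lowest share of its 0 h mean at 3 h and 6 h among the 4 genes that were later called. Uncultured cells held 865 and 828 CPM, and after 3 h isolations 1, 2 and 3 held 381, 416 and 470.2 CPM, a mean of 49.9% of that at 0 h with no overlap between the groups. How many of all genes were separated in this way was not counted, and Mapt was not called at 3 h. After 6 h the values were 69.7, 106 and 57.7 CPM. They then stayed low, at 23.6, 27.6 and 16.1 CPM after 12 h and 15.6, 33 and 18.2 CPM after 18 h. Both libraries of 24 h, with 44.2 and 33.7 CPM, lay above all those of 12 h and 18 h. After 96 h Mapt was at 13.8, 22.9 and 7.92 CPM.

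Reln, the secreted protein, kept the largest share of its 0 h mean from 6 h on among the same 4 genes. It was at 2220 and 2382 CPM at 0 h and at 1715, 2534 and 2374 CPM after 3 h, so that these groups overlapped. After 6 h isolations 1, 2 and 3 held 1100.2, 1376 and 1538 CPM, all below 0 h. The values were 357, 522 and 499 CPM after 12 h, 200.1, 261 and 321 CPM after 18 h, and 142 and 248 CPM after 24 h. After 96 h they were 254, 193 and 234 CPM, in the range of 18 h and 24 h, with a mean at 9.88% of that at 0 h.

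Ncam1 took another course, and its libraries scattered widely. At 0 h it had 42.7 CPM (85 counts) in isolation 3 and 7.77 CPM (31 counts) in isolation 2. After 3 h it was 16.9, 6.71 and 28.5 CPM in isolations 1, 2 and 3, and after 6 h 1.48, 3.58 and 1.46 CPM, below both 0 h libraries. Isolation 2 then stood apart: it held 8.14 CPM after 12 h and 13.9 CPM after 18 h, while isolations 1 and 3 held between 0.745 and 1.46 CPM at both times. At 24 h the order was the other way round, with 4.08 CPM in isolation 1 and 1.67 CPM in isolation 2. After 96 h all 3 libraries lay close together at 17.8, 21.4 and 16.8 CPM, between the libraries of 0 h.

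**Figure D1:**
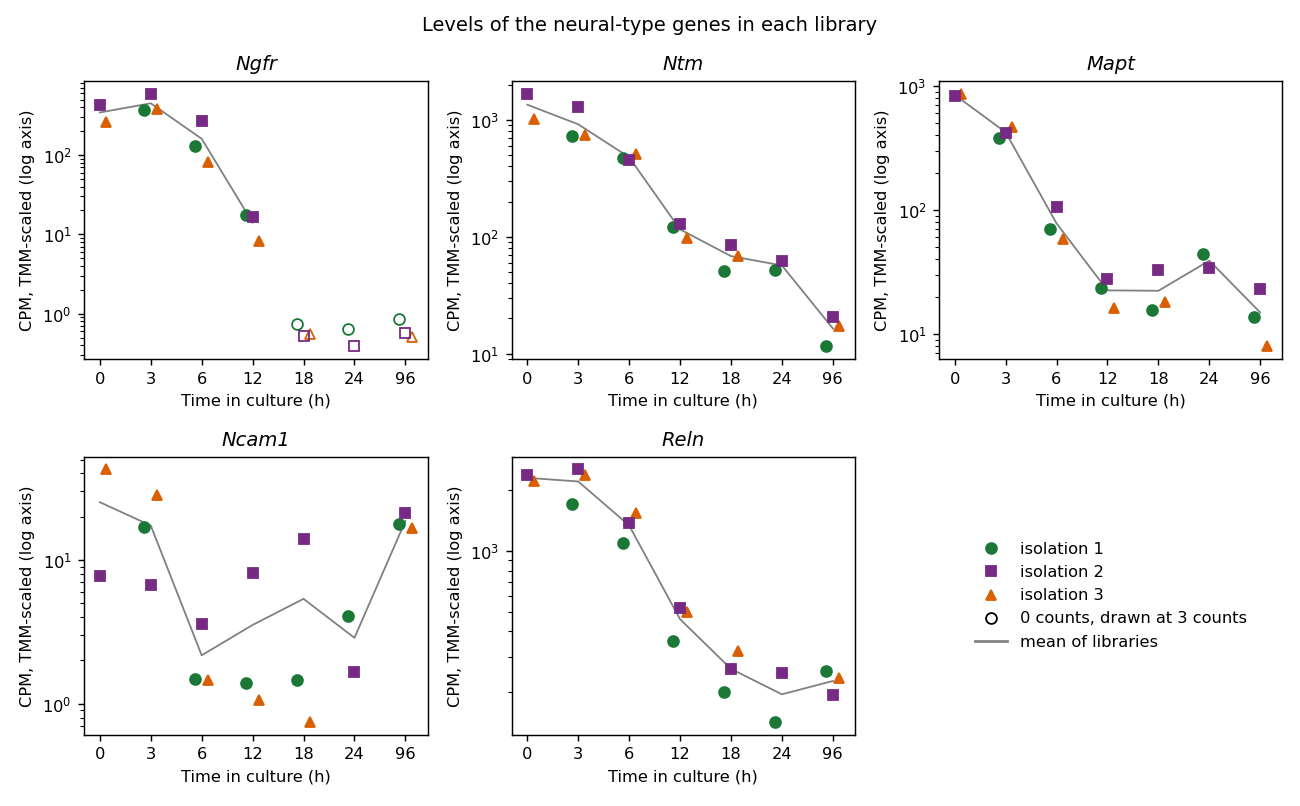
Level of each gene in each library, as TMM-scaled CPM on a log axis, against time in culture on a categorical axis; symbols mark the isolation, grey lines join the means, and open symbols are libraries with 0 counts drawn at 3 counts. Ngfr is at 0 counts in all 8 libraries from 18 h on, Ntm, Mapt and Reln are lower in every library from 6 h on than in any at 0 h, and Ncam1 is back between its 0 h libraries at 96 h. How many of all genes are separated from 0 h in this way was not counted.

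To ask when each gene left its level in uncultured cells, every time was compared with 0 h by edgeR's quasi-likelihood test, fitted over all libraries and all 15138 genes; a gene was called where the Benjamini-Hochberg adjusted p was under 0.1 and the levels differed more than 2-fold. After 3 h, 0 of the 5 genes were called lower, against 1.39% of all genes tested; 1 of them, Mapt, had an unadjusted p below 0.05 (log2 fold change -1 ± 0.39 SE, adjusted p = 0.208), and DESeq2 called it (-1.09, adjusted p = 0.0619). Ngfr at 3 h was at 0.38 ± 0.50 and Reln at -0.06 ± 0.26, and the sign of the latter turned with the isolation as a replicate block (0.05).

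After 6 h, 2 of the 5 genes were called lower, with a background of 4.35% of all genes. The log2 change was -3.44 ± 0.4 for Mapt (adjusted p = 3.95e-05) and -1.5 ± 0.3 for Ntm (adjusted p = 0.00342). For Reln the change was -0.78 ± 0.26 with an adjusted p of 0.0758, which stayed under the limit of 2-fold. Ngfr was at -1.10 ± 0.49 (adjusted p = 0.214). It was called with the isolation as a replicate block (-1.20, adjusted p = 0.0646), and also without 6 h replicate 2, the library of isolation 2 (-1.73, adjusted p = 0.0459). DESeq2 called all 5 genes at this time. The share of all genes that DESeq2 called was not counted, so the background above does not apply to this count.

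After 12 h the count rose to 4 of 5, all but Ncam1, where 9.1% of all genes were called lower. The log2 change was -5.24 ± 0.43 for Mapt (adjusted p = 7.84e-07), -4.62 ± 0.54 for Ngfr (adjusted p = 0.000151), -3.55 ± 0.31 for Ntm (adjusted p = 1.1e-06) and -2.32 ± 0.26 for Reln (adjusted p = 1.41e-05). The same 4 genes were called at 18, 24 and 96 h, with backgrounds of 8.21%, 3.86% and 5.03%. For Ngfr at these times the lower bounds above stand in place of fitted values. Ntm reached -6.35 ± 0.35 at 96 h (adjusted p = 1.23e-08), Mapt -5.83 ± 0.45 (adjusted p = 4.51e-07) and Reln -3.34 ± 0.27 (adjusted p = 7.43e-07). The median log2 change of the 5 genes was -3.55 at 12 h and -5.83 at 96 h, beside medians of 0 and 0.07 over all genes tested. Ngfr, Ntm and Gfap are named by the study as known markers of quiescence. It lists them among genes higher in HSCs of mice recovered from liver fibrosis than of fibrotic mice. Gfap was low here even at 0 h, as given further on.

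Ncam1 was called at no time in this fit. No gene of the 5 was called higher at any time, where 4.19%, 6.98%, 8.6%, 7.64%, 5.65% and 5.83% of all genes were at 3, 6, 12, 18, 24 and 96 h. Its log2 change was -3.51 ± 1.35 at 6 h (adjusted p = 0.128), -2.82 ± 1.31 at 12 h (adjusted p = 0.175) and -0.43 ± 1.29 at 96 h (adjusted p = 0.932). The standard errors of Ncam1 against 0 h were 1.29 to 1.55, and those of the fitted values of the other genes given above 0.26 to 0.54. DESeq2 called Ncam1 lower at 6, 12 and 24 h (-3.77, -3.07 and -3.35). The outcome turned on single libraries. Without 12 h replicate 2 Ncam1 was called lower at 12 h (-4.36, adjusted p = 0.0901), and without 18 h replicate 2 it was called lower at 18 h (-4.54, adjusted p = 0.0622) and at 6 h (-3.55, adjusted p = 0.074). Without 0 h replicate 3 the sign at 3 h and 96 h turned, to 1.16 and 1.25. With the libraries of the first isolation date only, an alternative chosen after the data were seen that leaves 1 library at 0 h, Ncam1 was called lower at 6, 12 and 18 h (-4.83, -5.07 and -5.25; adjusted p = 0.0818, 0.0556 and 0.0574). Tested over all times together, the 4 other genes were called (adjusted p from 8.09e-09 for Ntm to 6.7e-07 for Ngfr) and Ncam1 was not (adjusted p = 0.179), where 27.4% of all genes were.

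**Figure D2:**
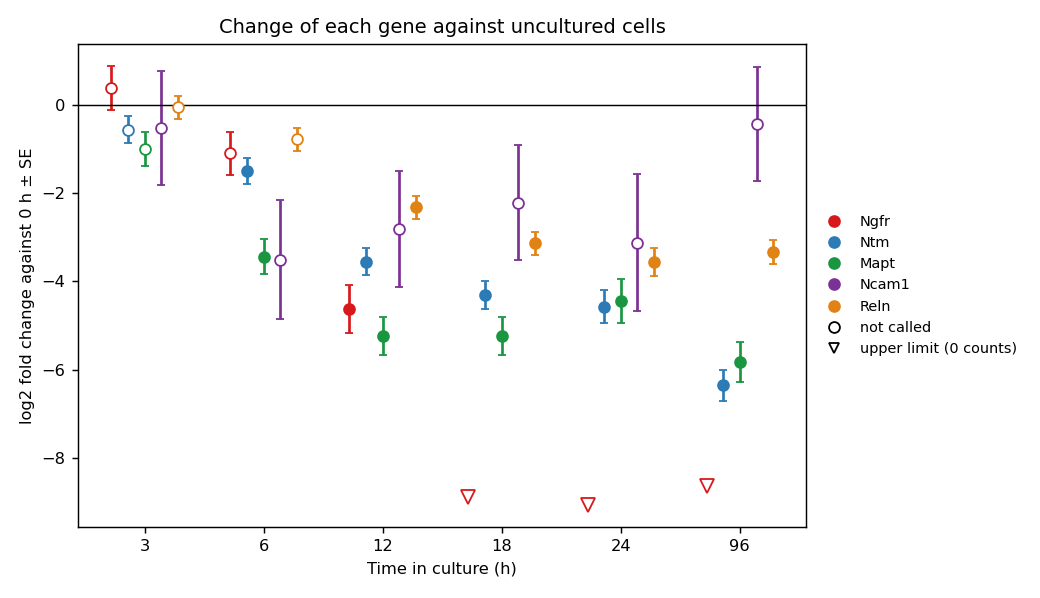
Log2 fold change of each gene against 0 h with its standard error (edgeR), at each time in culture; filled circles passed the adjusted p and fold limits, open circles did not, and open triangles are upper limits for Ngfr, which had 0 counts. Mapt and Ntm pass from 6 h on, Ngfr and Reln from 12 h on, and the wide bars of Ncam1 reach from -0.43 at 96 h to -3.51 at 6 h.

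Successive times showed where the largest steps fell. From 3 h to 6 h, 1 of the 5 genes was called lower (background 1.99%): Mapt, with a log2 change of -2.44 ± 0.37 (adjusted p = 0.00174). Ntm at -0.94 ± 0.27 and Ngfr at -1.48 ± 0.45 had adjusted p of 0.07 and 0.122, and with the isolation as a replicate block Ngfr was called too (-1.6, adjusted p = 0.0232). Ngfr was also called without 6 h replicate 2 (-2.15), and Ntm without 3 h replicate 1 or 3 (-1.12 each). The step from 6 h to 12 h was shared by 4 of 5 genes, against a background of 1.42%. Here the log2 change was -3.52 ± 0.49 for Ngfr (adjusted p = 0.00529), -2.06 ± 0.28 for Ntm (adjusted p = 0.00103), -1.79 ± 0.37 for Mapt (adjusted p = 0.0208) and -1.54 ± 0.24 for Reln (adjusted p = 0.00295). The call of Mapt was lost without 12 h replicate 3 (-1.6, adjusted p = 0.121) and when only these 2 times were fitted (-1.78, adjusted p = 0.107).

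Later steps separated the genes. From 12 h to 18 h only Ngfr was called lower among the 5 (background 0.152%). Its drop from a mean of 14 CPM to 0 counts is at least 19.1-fold. The adjusted p was 0.00654, and the call was lost when only these 2 times were fitted (adjusted p = 0.298) or all libraries were thinned to the smallest total (adjusted p = 0.109). Between 18 h and 24 h, 0 of 5 were called (background 0.0264%), 0 had an unadjusted p below 0.05, and DESeq2 called 0. From 24 h to 96 h, 2 of 5 were called lower (background 1.35%). Ntm was at -1.78 ± 0.3 (adjusted p = 0.00421), and Mapt passed narrowly, at -1.39 ± 0.4 (adjusted p = 0.0988). In 12 of 19 fits that each left out 1 library, only 1 of the 5 was called at this step; these were any library of 0 h, 3 h or 24 h, 6 h replicate 1, 12 h replicate 1, 18 h replicate 3 and 96 h replicates 1 and 3, and without 24 h replicate 1 Mapt had an adjusted p of 0.435.

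Between 12 h and 96 h the log2 change was -2.8 ± 0.29 for Ntm (adjusted p = 8.65e-06) and -1.02 ± 0.24 for Reln (adjusted p = 0.00993), the latter just past the fold limit. With the isolation as a replicate block Reln was at -0.97 and not called. The call was also lost without 0 h replicate 3, 12 h replicate 2 or 3, 18 h replicate 2, either library of 24 h or 96 h replicate 2, with values from -0.9 to -1. It was lost as well with DESeq2 and with DESeq2 size factors (-0.93 each), by library size only (-0.97), without the filter (-0.99), after thinning (-0.96) and with the first isolation date only (-0.82), so that 16 of 30 alternatives kept it. Together with Ngfr this made 3 of 5, against 6.57% of all genes called lower. Mapt at -0.59 ± 0.36 (adjusted p = 0.321) and Ncam1 at 2.39 ± 1.22 (adjusted p = 0.236) did not pass. DESeq2 called Ncam1 higher at 96 h than at 12 h (2.48, adjusted p = 0.0838). In order of level, Ngfr therefore ran 3 h, 0 h, 6 h, 12 h and then 0 counts. Neighbours in this order up to 6 h were not called apart in this fit. For Ntm the order was that of time, and 0 h and 3 h, 3 h and 6 h, 12 h and 18 h, and 18 h and 24 h were not called apart. For Mapt the low times 12 h and 18 h stood at means of 22.5 and 22.3 CPM (log2 difference -0.01 ± 0.36). For Reln, 18 h, 96 h and 24 h, at means of 261, 227 and 195 CPM, were the lowest and not called apart between 18 h and 24 h or 24 h and 96 h.

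Changes within one isolation were compared for the isolations that have a 0 h library. At 3 h Ngfr was higher than at 0 h in both, by 0.47 in isolation 2 and 0.55 in isolation 3 on the log2 scale, while Ntm, Mapt and Ncam1 were lower in both. At 6 h all 5 genes were lower in both isolations. At 12 h Ngfr changed by -4.67 in isolation 2 and -4.92 in isolation 3, Ntm by -3.71 and -3.38, Mapt by -4.88 and -5.71, and Reln by -2.19 and -2.15. Ncam1 parted, with 0.06 in isolation 2 and -4.86 in isolation 3 at 12 h, 0.80 and -5.22 at 18 h, and 1.41 and -1.32 at 96 h. With 1 library per isolation and time these are values without a test, and isolation and date cannot be told apart for isolation 2.

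**Figure D3:**
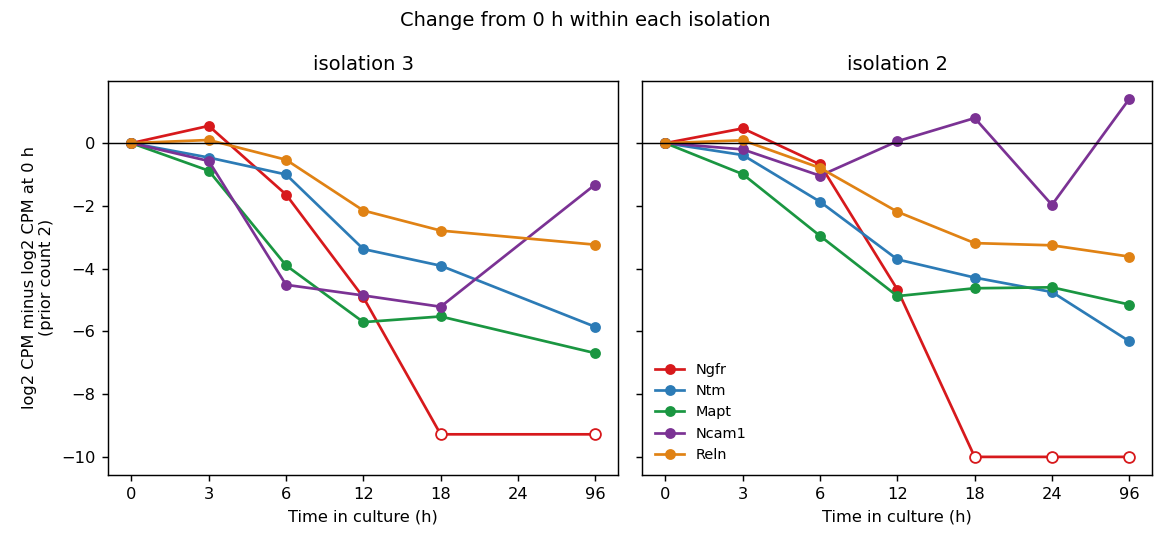
Change of each gene from the 0 h library of the same isolation, in log2 CPM (2 added as prior count), for isolation 3 (left, no library at 24 h) and isolation 2 (right); open circles are Ngfr values from 0 counts, whose depth depends on the prior count. The lines of Ngfr, Ntm, Mapt and Reln run alike in both panels, and Ncam1 lies at -4.86 in isolation 3 and at 0.06 in isolation 2 after 12 h.

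Levels across the 19 libraries were compared by Pearson's r of log2 CPM, as a description: the libraries share their times and isolations, so all genes that decline with time correlate. Ngfr and Reln were the closest pair (r = 0.963), followed by Ntm and Reln (0.94) and Ngfr and Ntm (0.936). Mapt had r from 0.832 to 0.896 with these 3. Ncam1 had r of 0.408 with Mapt and between 0.074 and 0.223 with the other genes. In every r with Ngfr, the libraries from 18 h on enter with one value, that of 0 counts. Reln was still detected in these libraries, so the pair parted late. Among the 8577 genes whose mean reached 10 CPM, the most like Ngfr were Fcna (0.986), C1ra (0.978), Steap4, Ecm1 and Dcn, of which Fcna encodes a ficolin and Dcn the matrix proteoglycan decorin. Reln was nearest to Dcn (0.977), Col14a1, Pam, Abcc9 and Fcna. The courses most like Ntm were those of Zfp36 (0.98), Rgs5, Sparcl1, Srsf5 and Tgfbi. For Mapt they were Tgfbr3 (0.953), Vsig4, Tmem56, Camk2n1 and Fosb, and for Ncam1 Iqsec2 (0.845), Tmem86a, Copg1, Eci2 and Efemp2. Dcn, Ecm1 and Rgs5 are also in the list of stellate cell markers, and Vsig4 is in that of Kupffer cells.

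A ligand gene of the p75 receptor was called higher than at 0 h at every time in culture, also at 3 h, when Ngfr had not fallen. Bdnf, for brain-derived neurotrophic factor, had between 3.26 and 10 CPM at 0 h. Its mean was 70.3 CPM at 3 h (log2 change 3.47 ± 0.56, adjusted p = 0.00125). At 12 h it had 262 CPM ± 115 (5.37 ± 0.61, adjusted p = 1.41e-05). It was still high at 96 h, with 256 CPM ± 10.2 (5.33 ± 0.60, adjusted p = 2.39e-05). Ntf3 had 0 and 28.6 CPM at 0 h and 0 counts in all libraries from 12 h on without being called, and Ntf5 had 0 counts in all libraries. From 18 h on Bdnf transcripts were thus present in libraries in which Ngfr had 0 counts.

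**Figure D4:**
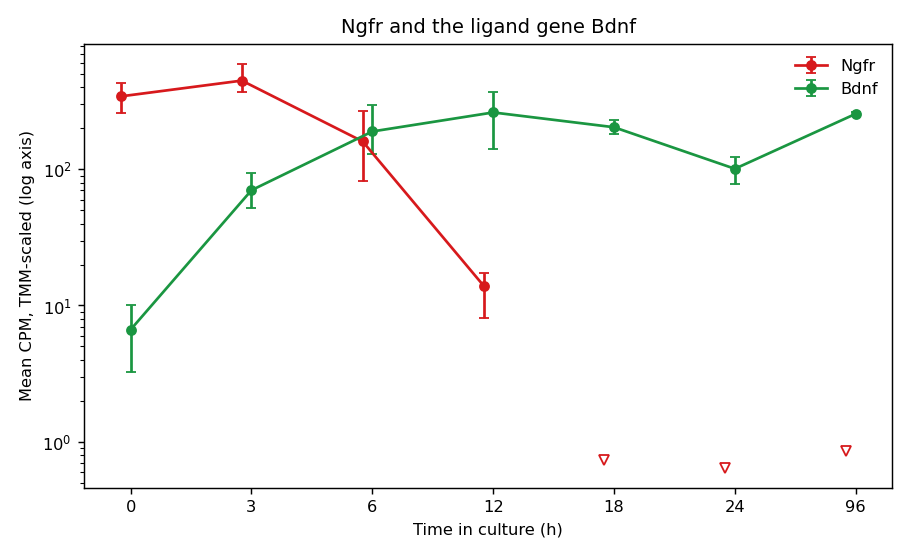
Mean TMM-scaled CPM of Ngfr and of the ligand gene Bdnf on a log axis against time in culture; bars span the lowest and highest library, and open triangles mark the level of 3 counts where all libraries held 0 counts of Ngfr. Bdnf goes from 6.65 CPM at 0 h to 262 CPM at 12 h and is at 256 CPM at 96 h, and Ngfr leaves the range after 12 h.

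The genes that work with the members were counted in lists, 97 genes in all, of which 71 were tested. At 12 h 10 of the 71 were called higher and 17 lower, where 8.6% and 9.1% of all genes were, and at 96 h 5 were higher and 12 lower, where 5.83% and 5.03% were. Their median log2 change was -0.12 at 12 h and 0.03 at 96 h. The count of 10 was 6 without 0 h replicate 2, and with the first isolation date only the count of 12 was 5. Of the 17 receptors and partners of Ngfr, 10 were tested, 1 was called higher and 3 lower at 12 h. Neurotrophin receptor genes were low: Ntrk2 reached 3.86 CPM at most, and Ntrk3 had a mean of 2.38 CPM at 0 h. The other genes called at 12 h encode proteins reported to bind the receptor's intracellular part or to signal from it. Bex3 fell from 117 to 15.6 CPM (-2.90 ± 0.48, adjusted p = 0.000528), Ndn (necdin) from 112 to 6.18 CPM (adjusted p = 0.000395) and Maged1 from 280.2 to 84.6 CPM (adjusted p = 0.0319). Traf6, an adaptor, rose from 1.26 to 19.5 CPM (adjusted p = 0.0424), a call lost without 0 h replicate 2 and when only these 2 times were fitted. At 96 h Bex3, Ndn and Maged1 were at 263, 74.2 and 339 CPM, and none of them was called apart from 0 h. Irak1 (132 and 49.6 CPM, adjusted p = 0.0244) was the gene of this list called lower at 96 h, and was not called without either 0 h library or 96 h replicate 3. The early peak belonged to Ripk2, a kinase, with 15.8 CPM at 0 h, 243 CPM at 3 h (adjusted p = 0.00221) and 12.9 CPM at 12 h.

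For Ntm and Ncam1 few relatives were expressed. Of the 4 other IgLON genes 3 were tested. Iglon5 was at 39.4 and 40.7 CPM at 0 h and at 0 counts in every library of 12 h and 96 h (adjusted p = 0.0679 and 0.0996). Leaving out any single library of 0 h or 12 h ended the call at 12 h. The call at 96 h was ended by the replicate block, by library size only and by leaving out any library of 0 h or 96 h. It also ended without 3 h replicate 1 or 3, 6 h replicate 1 or 2, or 18 h replicate 3. The list's count called lower at 96 h was kept in 13 of 30 alternatives. Lsamp had a mean of 12.8 CPM at 0 h and 0 counts at 96 h without being called (adjusted p = 0.135). Opcml and Negr1 did not exceed means of 1.68 CPM. Among 12 relatives and partners of Ncam1, 5 were tested, and 4, including L1cam and the polysialic acid synthase gene St8sia2, had 0 counts in all libraries. Fgfr1, a receptor that binds Ncam1, rose from 44.8 CPM ± 4.39 (n = 2) to 253 ± 43.8 (n = 3) at 12 h (2.50 ± 0.35, adjusted p = 0.000122) and was at 76.3 CPM at 96 h, where it was not called. Prnp, the prion protein gene, was at 300.1, 238 and 391 CPM at 0, 12 and 96 h, and Ptpra at 62, 42.1 and 56.9 CPM; neither was called at any time. The transferase gene St8sia4 had a mean of 0.251 CPM at 0 h, 0 counts at 12 h and 96 h, and means of 5.61 CPM at 18 h and 14.5 CPM at 24 h, and was called at no time.

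Tau acts on microtubules, and of 23 microtubule genes and tau kinases 20 were tested. The calls at 12 h were 2 higher and 3 lower, where 8.6% and 9.1% of all genes were. Tubb6, a beta tubulin, rose from 40.6 CPM ± 2.17 (n = 2) to 435 CPM already at 3 h (3.42 ± 0.27, adjusted p = 1.81e-06) and held 426 CPM ± 33.3 (n = 3) at 96 h. Tuba1a, an alpha tubulin, fell from 314 to 119 CPM at 12 h (adjusted p = 0.00219) and rose to 994 CPM at 96 h, above 0 h (1.66 ± 0.29, adjusted p = 0.00137). Map1b rose at 12 h, from 2.13 to 57 CPM (adjusted p = 0.0458), while Map1a fell from 34.1 to 9.05 CPM (adjusted p = 0.0468). Cdk5, a tau kinase, had 27.2 CPM at 0 h and 0 counts at 12 h (adjusted p = 0.00639), and 21.1 CPM at 96 h. Map2 was called lower at 96 h, at 28.5 CPM against 103 CPM (adjusted p = 0.0214), but not without 0 h replicate 3. The count of 2 called higher at 12 h was 1 without either 0 h library or 12 h replicate 3, and the count of 3 called lower was 1 without 0 h replicate 3. The tau kinase gene Gsk3b and the microtubule gene Map4, at 279 and 238 CPM at 0 h, were not called at any time. Of the neuronal genes Dcx, Stmn2 and Stmn3 all libraries held 0 counts, and Tubb3 had 0.251 CPM at 0 h.

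In the reelin pathway 16 of 17 genes were tested. For the counts at 12 h below, 8.6% of all genes were called higher and 9.1% lower. The classical receptor genes Vldlr and Lrp8 held 0 counts in both 0 h libraries. In culture Vldlr had its highest mean at 12 h (11.8 CPM) and was again at 0 at 96 h, Lrp8 had its highest mean at 96 h (17.4 CPM), and neither was called at any time. Dab1, the adaptor that relays the signal in neurons, did not exceed 0.752 CPM in any library. Called higher at 12 h were 2 genes, Dab2 (102 and 232 CPM, adjusted p = 0.0361) and Fyn (73.6 and 179.9 CPM, adjusted p = 0.0772). This count was 0 with DESeq2 size factors. It was 1 with DESeq2, without the filter, with the replicate block, at an adjusted p below 0.05 and without 12 h replicate 2 or 3. The count also fell in each fit that left 1 library at 0 h or at 24 h. Called lower were 4: Lrp1, a large endocytic receptor, from 1500.3 CPM ± 6.24 (n = 2) to 309 ± 32.5 (n = 3) (adjusted p = 6.67e-06), Pik3r1 from 151 to 27.3 CPM (adjusted p = 6.04e-05), Src from 119 to 33 CPM (adjusted p = 0.0398) and Adamts5, one of the proteases that can cut reelin, from 112 to 20.3 CPM (adjusted p = 0.00491). At 96 h Lrp1 (563 CPM), Pik3r1 (53.8 CPM), Fyn (20.9 CPM) and Adamts4 (1.81 CPM) were called lower and Rapgef1 (193 against 80.8 CPM) higher, the last not without 0 h replicate 3. Adamts4, a related protease, had peaked at 3 h, with 613 CPM against 26.6 CPM at 0 h (4.52 ± 0.92, adjusted p = 0.00808). Akt1 and Pafah1b1, at 329 and 255 CPM at 0 h, were called at no time.

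Other genes of neural type reported in HSCs numbered 20, of which 14 were tested. At 12 h 2 were called higher and 6 lower, where 8.6% and 9.1% of all genes were. Cadm1, Alcam and Nrp1, all of the cell surface, fell to 28.5, 30.1 and 88.6 CPM at 12 h from 415, 241 and 429 CPM, and all were still called lower at 96 h, at 175, 31.3 and 149 CPM. Cdh2 (N-cadherin) was lower from 3 h (257 to 120.5 CPM, adjusted p = 0.0354) to 12 h and not called from 18 h on, the call at 3 h being lost without 0 h replicate 3 or 3 h replicate 1 or 3, and Nlgn2 was called lower at 12 h (adjusted p = 0.08). Nes, for the intermediate filament nestin, rose instead, from 116 CPM ± 19.1 to 769 ± 120.3 at 12 h (2.73 ± 0.31, adjusted p = 1.41e-05) and 314 ± 83.2 at 96 h (adjusted p = 0.00394). Robo2, a guidance receptor, rose to 426 CPM at 12 h from 196 CPM (adjusted p = 0.0127) and was below 0 h at 96 h, with 77.4 CPM (adjusted p = 0.00409). The count of 2 called higher at 12 h was 1 with DESeq2 size factors and without 0 h replicate 3 or 12 h replicate 3. Gfap, a glial filament often used as an HSC marker in rodents, was low even at 0 h, with a mean of 8.65 CPM, and had 0 counts in 16 of the 19 libraries.

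Marker lists of the cell types that a sort could hold moved over the same times. All 12 stellate cell markers were called lower at 12 h, where 9.1% of all genes were. Their sum went from 30576 to 35687 CPM at 0 h down to 5427 to 6397 CPM at 12 h and 2816 to 3137 CPM at 96 h. The sum of 8 activation markers was 924 to 1639 CPM at 0 h and 6073 to 8373 CPM at 96 h. At 96 h 7 of 8 were called higher, where 5.83% of all genes were. Acta2, for smooth muscle actin, was at 94.6 CPM at 0 h and 3169 CPM at 96 h. As sums, markers of other liver cells were highest in the first hours. The endothelial marker Cdh5 went the other way up to 18 h, from a mean of 34.4 to 159 CPM. In isolation 1, which has no 0 h library, the endothelial sum was 536 CPM at 18 h. Isolations 2 and 3 held 189 and 164 CPM at that time. The 8 hepatocyte markers summed to 3152 and 6978 CPM at 0 h, 391 to 1146 CPM at 3 h and 25.8 to 75.1 CPM at 96 h. Kupffer cell and leukocyte markers summed to 126 and 133 CPM at 0 h and to 0 in every library of 96 h, and endothelial markers to 529.8 and 822 CPM at 0 h, up to 2525 CPM in isolation 1 at 3 h, and 17.3 to 149 CPM at 96 h. Portal fibroblast and mesothelial markers summed to 109.8 and 131 CPM at 0 h and to between 15.5 and 30 CPM at 96 h, and cholangiocyte markers summed to at most 19.1 CPM in any library of 0 h. The part of these cells in the decline of Ngfr, Ntm, Mapt and Reln was not tested.

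**Figure D5:**
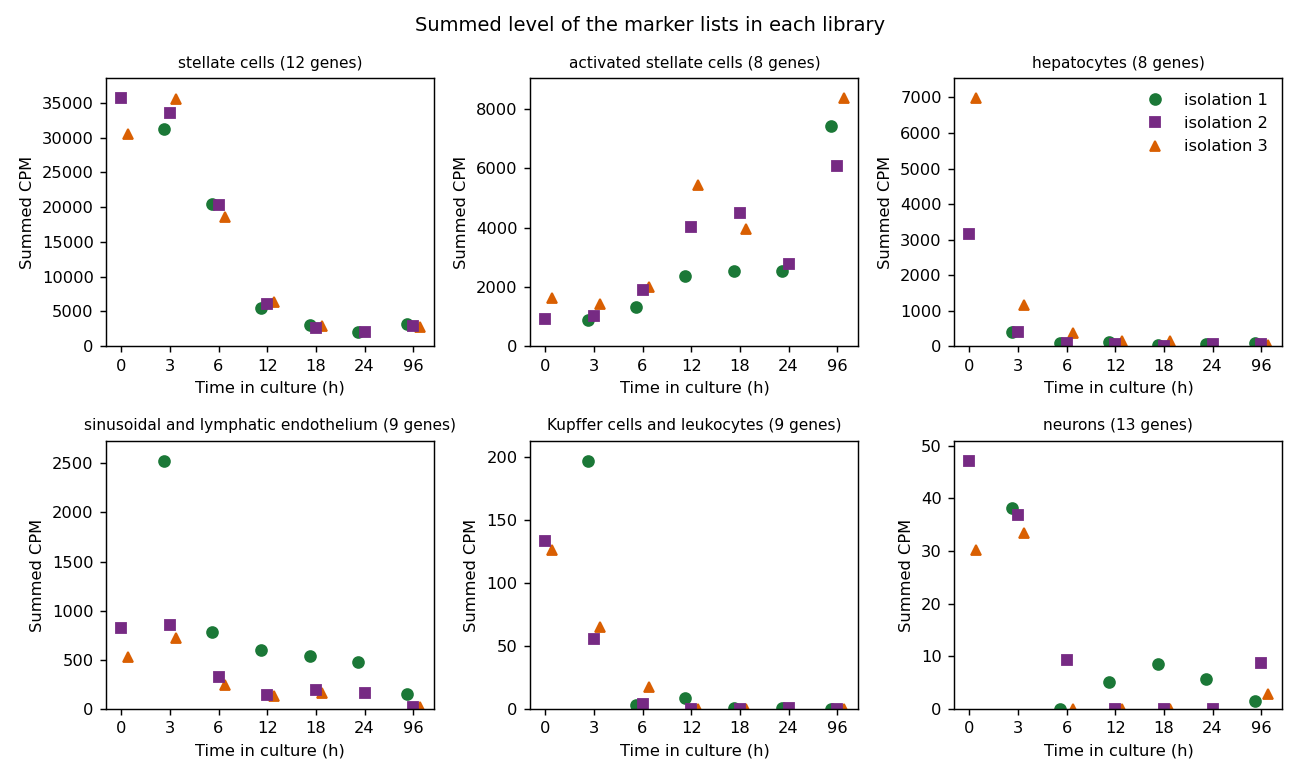
Summed TMM-scaled CPM of 6 marker lists in each library against time in culture, each on its own linear axis from 0; symbols mark the isolation. The stellate cell sum drops between 3 h and 18 h, the hepatocyte sum between 0 h and 3 h, the activation sum is highest at 96 h, and the neuron sum does not exceed 47.1 CPM.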

How the data were processed

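Raw counts per gene, whole numbers without normalization, were deposited by the authors for 19 libraries. Per the labels, libraries were made with the QuantSeq 3' FWD kit. According to the study's methods, single-end reads were trimmed after a quality check, STAR placed them on GRCm38.p6 and StringTie assembled transcripts. The counting tool, its strand setting and the annotation release are not given in the sources used here. Conditions, dates and the numbers read here as isolations came from the sample labels. Identifiers were matched to GENCODE M21 symbols, which named 55141 of 55487, and 23696 genes had at least 1 count.

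In R 4.3.3, edgeR 4.0.16 filtered genes with filterByExpr, scaled by TMM and fitted one quasi-likelihood model of 7 times over 19 libraries without covariates. SE is the log2 fold change divided by the square root of F. A call needed an adjusted p under 0.1 and more than a 2-fold difference. Log2 CPM used a prior count of 2. The study calls its repeats independent, and whether each came from separate mice is not given in the sources used here. The p-values therefore measure the spread between these libraries. The alternatives were edgeR fits and a fit with DESeq2 1.42.0, and plots were drawn with matplotlib 3.10.9. On simulated counts for 12 h against 0 h with 14210 genes, 25 of 100 genes changed 4-fold and 58 of 100 changed 16-fold were recovered, with 0 false calls.

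If the number in a label is that of an isolation, as read here, it pairs the libraries. The residuals of 51 same-numbered pairs correlated at 0.014 on average and those of 103 other pairs at -0.007.

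The 5 genes and all lists were chosen with earlier results of these data known. Named beside them are the 4 genes of each list with the highest mean CPM, the genes of partner lists called where these are 5 or fewer, and the 5 genes most correlated with each of the 5. Receptor and neuronal genes at or near 0 counts, Gfap and Cdh5 were named after their values were seen. Marker lists are given mainly by their sums. Some genes of these lists are counted but not reported here by name. Alternatives changed the tool, scaling, filter, covariates, libraries, thresholds and depth.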

Additional observations from a re-analysis of the deposited data

How the results depend on the processing

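Over all contrasts, 1655 of the members' log2 changes under an alternative kept their direction and their side of the limits, 35 lost a call, 30 gained one and 18 turned sign; the cause was not tested. Ngfr, Ntm, Mapt and Reln stayed called lower at 12, 18, 24 and 96 h in every alternative.

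Members called lower between 3 h and 6 h were 3 with DESeq2 size factors, 2 without the filter, with the replicate block, with the date as covariate and with no limit on fold, 4 with DESeq2, and 1 to 2 with 1 library left out. From 24 h to 96 h they were 1 with DESeq2 size factors, without the filter, with only the 2 times fitted, at an adjusted p below 0.05 and with the first isolation date only (chosen after seeing the data), and 1 to 2 with 1 library left out. From 12 h to 18 h they were 0 with only these 2 times fitted and after thinning. DESeq2 called 1 member at 3 h and 5 at 6 h. As the share of all genes called was not counted for DESeq2, its counts stand without a background.

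Partner genes called lower at 3 h (1) were 2 with DESeq2 size factors, the replicate block or the date, 3 with DESeq2 and 0 to 2 with 1 library left out; those lower at 6 h (10) were 4 with the first date only and 6 to 11 with 1 left out. Those called higher were 7 at 24 h by library size only (4), 11 at 96 h with DESeq2 or only the 2 times fitted (5), and, with the first date only, 4, 6, 5 and 3 at 3, 12, 18 and 96 h; 6 to 10 at 12 h with 1 library left out. Those lower at 96 h (12) were 5 with the first date only.

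Signs turned for changes that were not called. Reln at 3 h was 0.05 with the replicate block and reached 0.12 with 1 library left out (from -0.13), and Reln from 24 h to 96 h ran from -0.13 to 0.67. Mapt from 12 h to 18 h was 0.13 by library size only and 0.03 after thinning, and -0.42 to 0.19 with 1 left out. Ncam1, with the first date only, was -0.24 from 6 h to 12 h, -0.18 from 12 h to 18 h and 1.88 from 18 h to 24 h; with 1 library left out these ran from -0.81 to 1.29, -1.68 to 2.07 and -1.62 to 1.41. Against 0 h, Ncam1 ran from -1.26 to 1.16 at 3 h and -1.2 to 1.25 at 96 h.

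Apart from Ngfr at 6 h, Ngfr from 3 h to 6 h and Reln from 12 h to 96 h, the replicate block changed no call of a member. DESeq2 size factors shifted the median of all genes by -0.13 at 6 h and 12 h and lowered the share of higher calls from 61.6% to 49% at 6 h, from 48.2% to 37.2% at 18 h and from 59.4% to 48.2% at 24 h; library size only raised it to 71.5% at 24 h and 58.2% at 18 h, with medians of 0.24 and 0.08. With 2 or 3 libraries per time, outlying libraries were not searched for. Depth limits Ngfr from 18 h on to the bounds given.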
